A study of Mus musculus with 10 samples.

Results

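RNA polymerase I is the enzyme that transcribes the repeated ribosomal RNA genes in the nucleolus, and the transcripts described here are those of 5 of its subunits and of 5 factors that start its transcription. The 10 genes are Polr1a, Polr1b, Polr1c, Polr1d, Polr1e, Ubtf, Rrn3, Taf1a, Taf1b and Taf1c, taken by gene symbol, and all 10 were measured among 19935 genes. By the RefSeq gene table, 0 of them share a chromosome with Rrp8. Where a gene had several probe sets, the brightest on average was taken. Livers of 12-week-old wild-type mice (WT, 5 animals) and of mice without nucleomethylin (NML-KO, 5 animals) were measured on whole-transcript microarrays, 1 array per liver. The labels name no strain, sex, litter, time of dissection or further allele or agent, and do not say how the gene was removed. P-values therefore measure the spread between these 10 livers only.

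A round of RNA polymerase I transcription begins with UBTF, an architectural protein that coats the ribosomal DNA, and with selectivity factor 1, a complex of the TATA-binding protein with TAF1A, TAF1B, TAF1C and TAF1D that recognises the core promoter. RRN3, also called TIF-IA, then bridges the polymerase to this complex and carries much of the control by growth and nutrient signals. Nucleomethylin, the product of Rrp8, belongs to a complex that silences ribosomal RNA genes when energy is short. The arrays read messenger RNAs of the machinery. Ribosomal RNA output was not analysed here.

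The targeted gene, Rrp8, was checked first, and its genotypes did not overlap. Its log2 intensity was 7.75 ± 0.11 (SD, n = 5) in WT and 6.87 ± 0.22 (SD, n = 5) in NML-KO livers, a difference of -0.88 (SE 0.10), with an exact two-sided permutation p of 0.0079 (the smallest that 5 against 5 allows) and a Benjamini-Hochberg adjusted p of 0.109 by limma. With 1 liver left out the adjusted p ran from 0.0171 (without NML-KO 4) to 0.586 (without WT 3), and 1 of the 10 fits passed 0.05. The livers also fall apart by Dbp, a transcription factor gene under direct clock control: 5 Dbp-high livers (WT 1, WT 2 and NML-KO 1 to 3) lay between 9.68 and 10.23, and 5 Dbp-low livers (WT 3 to 5, NML-KO 4 and NML-KO 5) between 6.20 and 6.60. These classes come from a measured value, divided at a log2 Dbp of 8, and are not a label of the study. Hepatocyte markers were high in every liver, with Alb between 14.30 and 14.59 and Hnf4a between 11.43 and 12.08. The mean of 7 hepatocyte markers stayed between 13.64 and 13.79.

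None of the 10 transcripts passed the test for a genotype difference. Over all livers 0 of 10 passed an adjusted p of 0.05 in limma, as did 0% of all genes, and 0 of 10 had an unadjusted p below 0.05, against 2.7% of all genes. WT and NML-KO livers overlapped for all 10 genes, while they did not overlap for 0.406% of all genes. The log2 differences (NML-KO minus WT) ran from -0.17 for Taf1b to 0.25 for Rrn3, with 7 of 10 above 0, against 46.6% of all genes. Their median was 0.048, and the median over all genes was -0.0065. Each of the 10 had an adjusted p of 0.999 by limma, and the smallest unadjusted p was 0.187 (Taf1b).

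**Figure D1:**
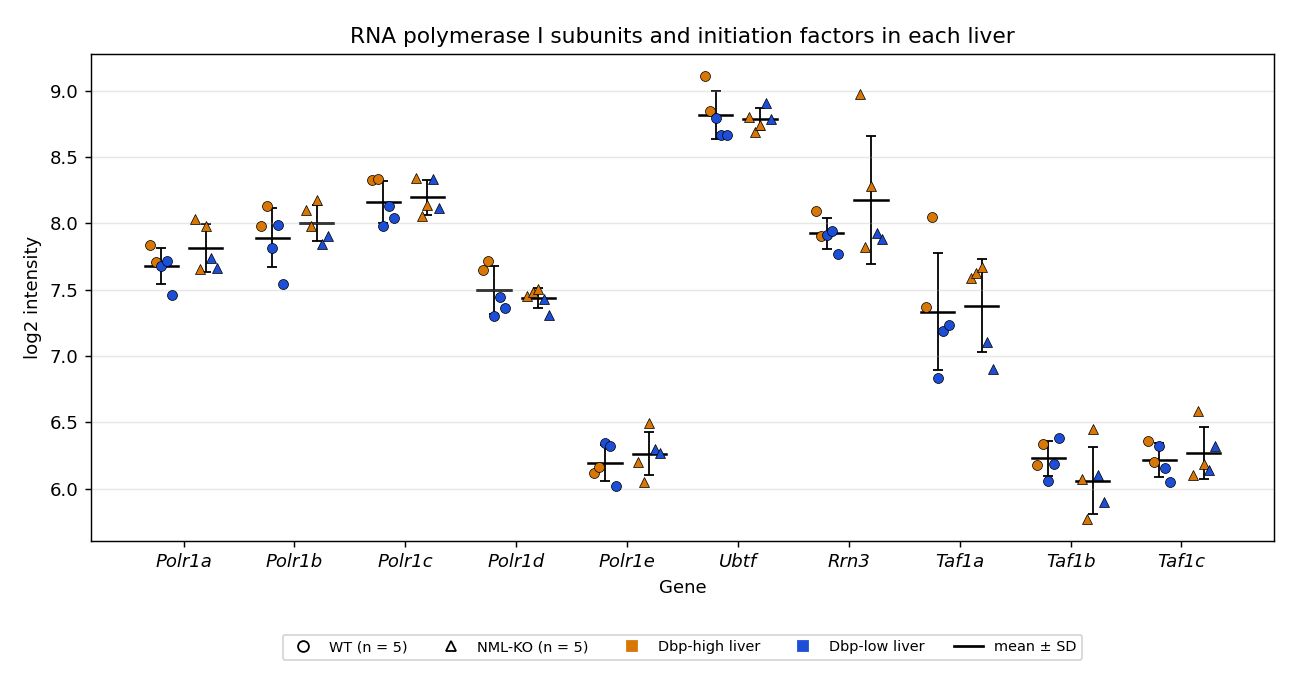
Log2 intensity (vertical axis) of the 10 genes (horizontal axis) in each liver, with WT livers as circles and NML-KO livers as triangles, orange for Dbp-high and blue for Dbp-low livers; lines and bars give the mean ± SD of 5 livers. The genotypes overlap for every gene, NML-KO 1 stands high for Rrn3 at 8.98, and the orange points lie above the blue points for Taf1a and Polr1d.

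The catalytic core of the enzyme is formed by its largest subunits, encoded by Polr1a and Polr1b. Polr1a read 7.83, 7.71, 7.68, 7.72 and 7.46 in WT 1 to 5, and 8.03, 7.66, 7.98, 7.74 and 7.66 in NML-KO 1 to 5. The NML-KO livers 1 and 3 were the highest of the 10 and WT 5 was the lowest, with the remaining livers mixed. The difference was 0.13 (SE 0.096), a 1.10-fold higher mean in NML-KO livers with a 95% confidence interval from 0.946-fold to 1.27-fold (unadjusted p = 0.196 by limma; exact permutation p = 0.23).

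Polr1b, whose product forms the other side of the active centre, read 7.98, 8.13, 7.81, 7.99 and 7.55 in WT 1 to 5. In NML-KO 1 to 5 it read 8.10, 7.98, 8.18, 7.85 and 7.91. WT 5 again lay lowest and NML-KO 3 highest. Its difference of 0.11 (SE 0.11) was 0.026 without WT 5. The Polr1a difference was 0.078 without WT 5 and 0.078 without NML-KO 1.

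Polr1c and Polr1d encode a pair of subunits that form the platform on which the enzyme is assembled, and which RNA polymerase III shares. Polr1c lay between 7.98 and 8.33 in WT and between 8.06 and 8.34 in NML-KO livers, with a difference of 0.035 (SE 0.090), whose sign turned without WT 3 (-0.010). Polr1d read 7.65, 7.72, 7.30, 7.45 and 7.36 in WT 1 to 5, and 7.45, 7.48, 7.50, 7.43 and 7.31 in NML-KO 1 to 5. WT 1 and WT 2 were above every other liver, and the NML-KO livers lay within the WT range. The Polr1d difference was -0.059 (SE 0.086), or 0.96-fold with an interval from 0.841-fold to 1.10-fold, and it was -0.0031 without WT 2.

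Polr1d was the single gene of the 10 with more than 1 probe set. Its second probe set (10527559) is dimmer, lay between 6.99 and 7.60 in WT and between 6.94 and 7.65 in NML-KO livers, and had a difference of -0.039. NML-KO 4 was the highest liver on this probe set and the second lowest NML-KO liver on the brighter one (10503911). The platform table lists an additional transcript for the brighter probe set, and which transcripts each of them reads was not examined.

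Polr1e encodes a peripheral subunit known as PAF53, which stabilises the enzyme at initiation. It lay between 6.02 and 6.34 in WT and between 6.05 and 6.49 in NML-KO livers, and the difference was 0.071 (SE 0.091). It was 0.013 without NML-KO 3 and 0.12 without NML-KO 2. Of the 5 subunit genes, 4 had a higher and 1 a lower mean in NML-KO livers, and no interval reached beyond 1.28-fold in either direction.

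Ubtf read 9.11, 8.85, 8.79, 8.67 and 8.66 in WT 1 to 5, and 8.80, 8.69, 8.74, 8.91 and 8.79 in NML-KO 1 to 5. WT 1 was the highest liver and NML-KO 4 the next. Means were 8.82 ± 0.18 and 8.79 ± 0.081 (SD, n = 5 each), and the difference of -0.030 (SE 0.087) had an interval from 0.857-fold to 1.12-fold. Without WT 1 it was 0.044, so its sign rests on that liver.

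Rrn3 had the widest spread between NML-KO livers. It read 8.10, 7.90, 7.91, 7.94 and 7.77 in WT 1 to 5, and 8.98, 7.82, 8.28, 7.93 and 7.88 in NML-KO 1 to 5. NML-KO 1 stood 1.62-fold above the next liver and 2.23-fold above NML-KO 2, while 3 of the NML-KO livers lay within the WT range. The mean difference of 0.25 (SE 0.20) was 1.19-fold with an interval from 0.878-fold to 1.62-fold, and it fell to 0.054 without NML-KO 1. The SD was 0.12 in WT and 0.48 in NML-KO livers, and 0.21 over the 4 NML-KO livers other than NML-KO 1.

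Of the selectivity factor 1 genes, Taf1a encodes a promoter-binding protein of the complex. Taf1a read 7.37, 8.05, 6.83, 7.19 and 7.23 in WT 1 to 5, and 7.59, 7.62, 7.67, 7.10 and 6.90 in NML-KO 1 to 5. Its highest and lowest livers, WT 2 and WT 3, were both WT, and differed 2.31-fold. The genotype difference was 0.043 (SE 0.23), and its sign turned in 4 of the 10 fits that left out 1 liver.

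Taf1b, whose product resembles the general factor TFIIB, lay between 6.06 and 6.38 in WT and between 5.77 and 6.45 in NML-KO livers. Both the lowest and the highest of the 10 values came from NML-KO livers, 2 and 3. Its difference of -0.17 (SE 0.12) was the most negative of the 10, at 0.89-fold with an interval from 0.741-fold to 1.07-fold. It was -0.096 without NML-KO 2 and -0.27 without NML-KO 3. Taf1c, which contacts RRN3, lay between 6.05 and 6.36 in WT and between 6.10 and 6.59 in NML-KO livers. NML-KO 2 held its highest value, and without that liver the difference of 0.052 (SE 0.099) was -0.028. It was 0.0095 without WT 5. Taf1b was the 1 gene of the 10 whose mean (6.14) lay below the median gene (6.22), and Polr1e (6.23) and Taf1c (6.24) lay barely above it. A background in the signal, if any, would shrink the differences of these dim genes.

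With the Dbp class as a term in the model, 0 of 10 genes passed the adjusted threshold (0% of all genes) and 0 of 10 had an unadjusted p below 0.05 (4.36% of all genes). The differences ran from -0.18 for Taf1b to 0.20 for Rrn3, with a median of 0.023. The Taf1a difference, 0.043 before, was -0.082 (SE 0.13), and its SE fell from 0.23. For Polr1d the difference was -0.10 (SE 0.059), with the smallest unadjusted p of the 10 (0.117; adjusted p = 0.992 by limma).

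Within the Dbp-high livers, 3 NML-KO against 2 WT, no gene of the 10 passed the adjusted threshold in limma (0% of all genes), and the smallest adjusted p was 0.404. Polr1d and Ubtf had an unadjusted p below 0.05, both lower in NML-KO livers, against 6.43% of all genes lower at that level. For these 2 genes the genotypes did not overlap, against 12.3% of all genes without overlap and lower. Both shares count only the direction that these 2 genes took, and shares in either direction are not given here. Ubtf read 9.11 and 8.85 in WT against 8.80, 8.69 and 8.74 in NML-KO livers, a difference of -0.23 (SE 0.094; unadjusted p = 0.0345, adjusted p = 0.451 by limma). It was -0.10 without WT 1. Polr1d read 7.65 and 7.72 in WT against 7.45, 7.48 and 7.50 in NML-KO livers, a difference of -0.20 (SE 0.073; unadjusted p = 0.0211, adjusted p = 0.404 by limma). On the dimmer Polr1d probe set, the WT values of 7.42 and 7.60 also lay above the NML-KO values of 6.94 to 7.17. Dbp itself was lower in these NML-KO livers (9.68 to 9.71) than in the WT livers (9.87 and 10.23), and its part in the Ubtf and Polr1d values was not tested.

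Within the Dbp-low livers, 2 NML-KO against 3 WT, 0 of 10 genes passed either threshold (0% of all genes adjusted, 2.24% unadjusted), and the genotypes overlapped for all 10, while 19% of all genes had no overlap. The median of the 10 differences was 0.058, with 8 of 10 above 0 (47% of all genes), against -0.034 in the Dbp-high livers, with 5 of 10 above 0 (46.2% of all genes). The median in the Dbp-high livers was 0.015 after quantile normalization and 0.014 with dim genes left out, so its sign depends on the processing. In the Dbp-low livers Polr1c differed by 0.17 (SE 0.10), the highest of the 10, and by 0.064 without NML-KO 4. Ubtf differed by 0.14 (SE 0.094), and by 0.082 without NML-KO 4.

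Polr1c, Polr1d and Ubtf had differences of opposite sign in the 2 classes, as did 52.2% of all genes. For Polr1d the difference in Dbp-low livers was 0.0011, and it was -0.016 after quantile normalization, -0.0030 after median centring and -0.034 with the replicate number as a block, so its sign there is not settled. The difference between the classes was tested as an interaction. Ubtf had an interaction of -0.38 (SE 0.13), with an unadjusted p of 0.0201 and an adjusted p of 0.742 by limma, and was the 1 of 10 with an unadjusted p below 0.05, against 6.49% of all genes. Without WT 1 it was -0.24. Polr1c followed at -0.32 (SE 0.15; unadjusted p = 0.055; -0.21 without NML-KO 4) and Polr1d at -0.21 (SE 0.10; unadjusted p = 0.0783). No gene in the whole table passed the adjusted threshold for the interaction (0% of all genes), and none of these interactions passed it.

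**Figure D2:**
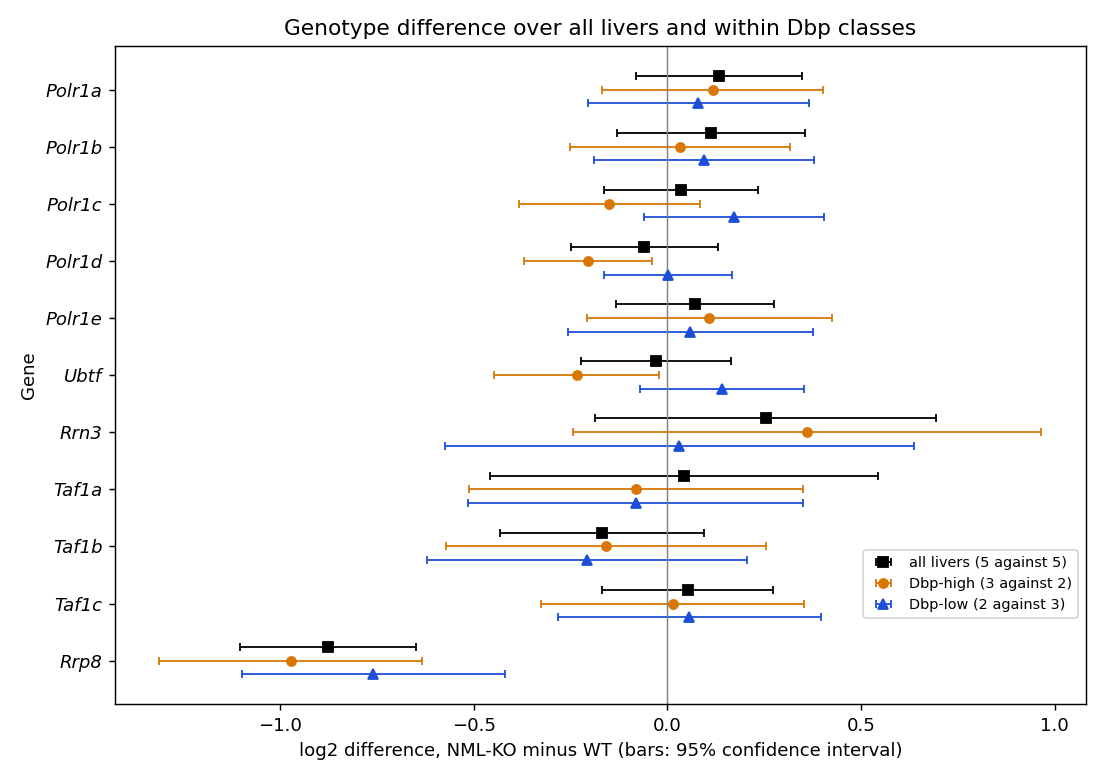
Log2 difference, NML-KO minus WT (horizontal axis), for the 10 genes and Rrp8 (vertical axis), over all livers and within each Dbp class; bars are 95% confidence intervals from limma. The intervals of the 10 genes include 0, apart from Polr1d and Ubtf within the Dbp-high livers, while those of Rrp8 lie below 0 in all 3 comparisons.

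For 8 of the 10 genes, all but Polr1e and Taf1b, the means of the Dbp classes lay farther apart than those of the genotypes. The share of all genes for which this holds was not counted, so the 8 of 10 cannot be called particular to these genes. The class differences are a description without a test, since the classes were drawn from the same arrays. The mean was higher in Dbp-high than in Dbp-low livers for 9 of 10 genes, as for 57.4% of all genes, with Polr1e as the exception at -0.045. The same 9 of 10 was counted after quantile normalization, after median centring and with an offset of 16. The median of the 10 differences (Dbp-high minus Dbp-low) was 0.16, against 0.023 over all genes. The classes did not overlap for 2 of 10, Taf1a and Polr1d, both higher in Dbp-high livers, against 5.04% of all genes higher without overlap. That share counts only the direction that these 2 genes took, and the share in either direction is not given here. After quantile normalization Polr1b was also without overlap, which made 3 of 10. The shares of all genes were counted on the deposited values only, so these recounts have no share beside them.

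Taf1a had the widest difference of the 10 between the classes. The Dbp-high livers lay between 7.37 (WT 1) and 8.05 (WT 2), and the Dbp-low livers between 6.83 (WT 3) and 7.23 (WT 5), which left a gap of 0.14. Class means differed by 0.61, or 1.52-fold, a size above that of 95.8% of all genes. The difference was 0.62 among WT livers and 0.62 among NML-KO livers. Their difference, the interaction, was 0.00066 (SE 0.27). The WT value averages 2 unlike Dbp-high livers, WT 1 at 7.37 and WT 2 at 8.05, against a Dbp-low WT mean of 7.09. The closeness of the 2 values therefore depends on that average.

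Polr1d was 1.14-fold higher in Dbp-high livers, with values from 7.45 to 7.72 against 7.30 to 7.45. The gap between the classes was only 0.009. On the dimmer probe set they overlapped (6.94 to 7.60 against 6.99 to 7.65). Rrn3 differed by 0.33 between the classes, but by 0.14 without NML-KO 1. Polr1b differed by 0.25 and Polr1a by 0.19, with overlapping classes.

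The upstream sequences of Taf1a and Rrn3 are shown because these genes varied most between livers, one along the Dbp classes and the other through 1 liver. Both are the 250 bases before the first annotated start in RefSeq (GRCm38.p6), on the plus strand, at chr1:183388635-183388884 for Taf1a and chr16:13780449-13780698 for Rrn3. Capitals mark CACGTG, the E-box that the clock activators and MYC are known to bind.
Taf1a: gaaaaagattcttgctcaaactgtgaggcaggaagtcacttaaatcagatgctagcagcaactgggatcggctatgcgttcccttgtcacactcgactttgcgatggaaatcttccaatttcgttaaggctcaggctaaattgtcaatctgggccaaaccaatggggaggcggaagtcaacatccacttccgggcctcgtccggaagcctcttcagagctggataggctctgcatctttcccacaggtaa
Rrn3: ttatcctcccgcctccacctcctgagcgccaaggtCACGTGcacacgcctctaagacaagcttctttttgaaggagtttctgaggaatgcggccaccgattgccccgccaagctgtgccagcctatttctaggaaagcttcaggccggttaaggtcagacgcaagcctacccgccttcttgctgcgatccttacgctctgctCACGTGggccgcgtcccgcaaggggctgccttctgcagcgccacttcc

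The Rrn3 window held 2 E-boxes, which begin 215 and 48 bases before the start, and 0.429% of all 32851 windows of this length held 2 or more. Rrn3 was the 1 gene of the 10 with an E-box in any of its windows, against 6.86% of all genes. The letters of a D-box (TTATGTAA or TTACGTAA, searched on both strands), the element that DBP is known to bind, were in none of the 17 windows of the 10 genes, and in those of 1.09% of all genes. TATAAA was in no window of the 10 genes either, against 14.3% of all genes. GGGCGG, a GC box, was found on either strand for Polr1b, Polr1c, Polr1e, Ubtf and Taf1c, 5 of 10 against 35.4% of all genes. These are matches of letters only, and the letters of these motifs do not overlap in the windows shown. The number of windows differs between genes, with several for Ubtf, and each further window adds a chance of a match. Some windows, such as that of Polr1b, do not lie wholly before the annotated gene.

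**Figure D3:**
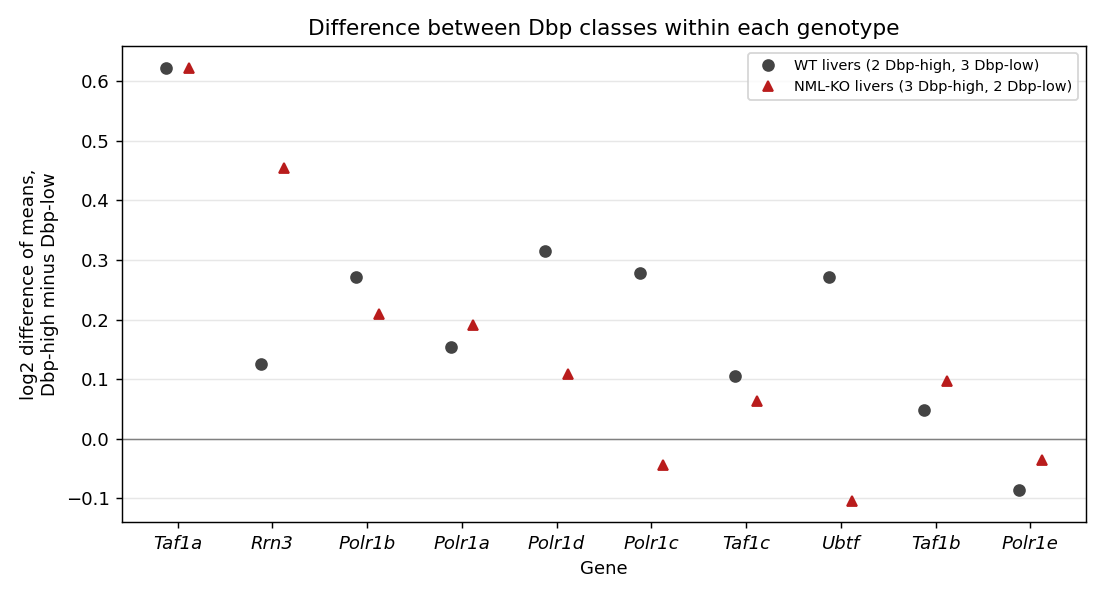
Difference of mean log2 intensity between Dbp-high and Dbp-low livers (vertical axis) for each gene (horizontal axis), among WT livers (circles) and among NML-KO livers (triangles). Taf1a lies at 0.62 in both genotypes, where the WT value averages unlike Dbp-high livers (WT 1 at 7.37, WT 2 at 8.05). Polr1c and Ubtf lie above 0 in WT and below 0 in NML-KO livers.

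Within a genotype, the difference between the classes varied from gene to gene. Ubtf was 0.27 higher in Dbp-high than in Dbp-low livers among WT and 0.10 lower among NML-KO mice (-0.10). Polr1c was 0.28 higher among WT and differed by -0.044 among NML-KO mice. Rrn3 was 0.12 higher among WT and 0.45 higher among NML-KO mice, and 0.15 higher among NML-KO mice without NML-KO 1. Its interaction was 0.33 (SE 0.38; unadjusted p = 0.404, adjusted p = 0.912 by limma). These are the same contrasts as the interactions given above.

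Averaged over the 10 genes, each taken relative to its own mean, the livers ran from -0.16 in WT 5 to 0.15 in NML-KO 1. Of the Dbp-high livers, 4 lay above 0 (0.086 in WT 1, 0.12 in WT 2, 0.15 in NML-KO 1 and 0.15 in NML-KO 3), and NML-KO 2 lay at -0.044. All 5 Dbp-low livers lay below 0, from -0.16 in WT 5 to -0.034 in NML-KO 4. In WT 1, 9 of 10 genes were above their own mean, and in WT 5 only Taf1b was. In NML-KO 1 and in WT 2 it was 6 of 10. A single gene weighed heavily in each of these averages, Rrn3 at 0.93 in NML-KO 1 and Taf1a at 0.69 in WT 2. The averages over all genes stayed between -0.024 (NML-KO 2) and 0.011 (NML-KO 4). An average over so many genes varies less than one over 10 genes whichever these are. The 2 ranges can therefore not be compared.

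**Figure D4:**
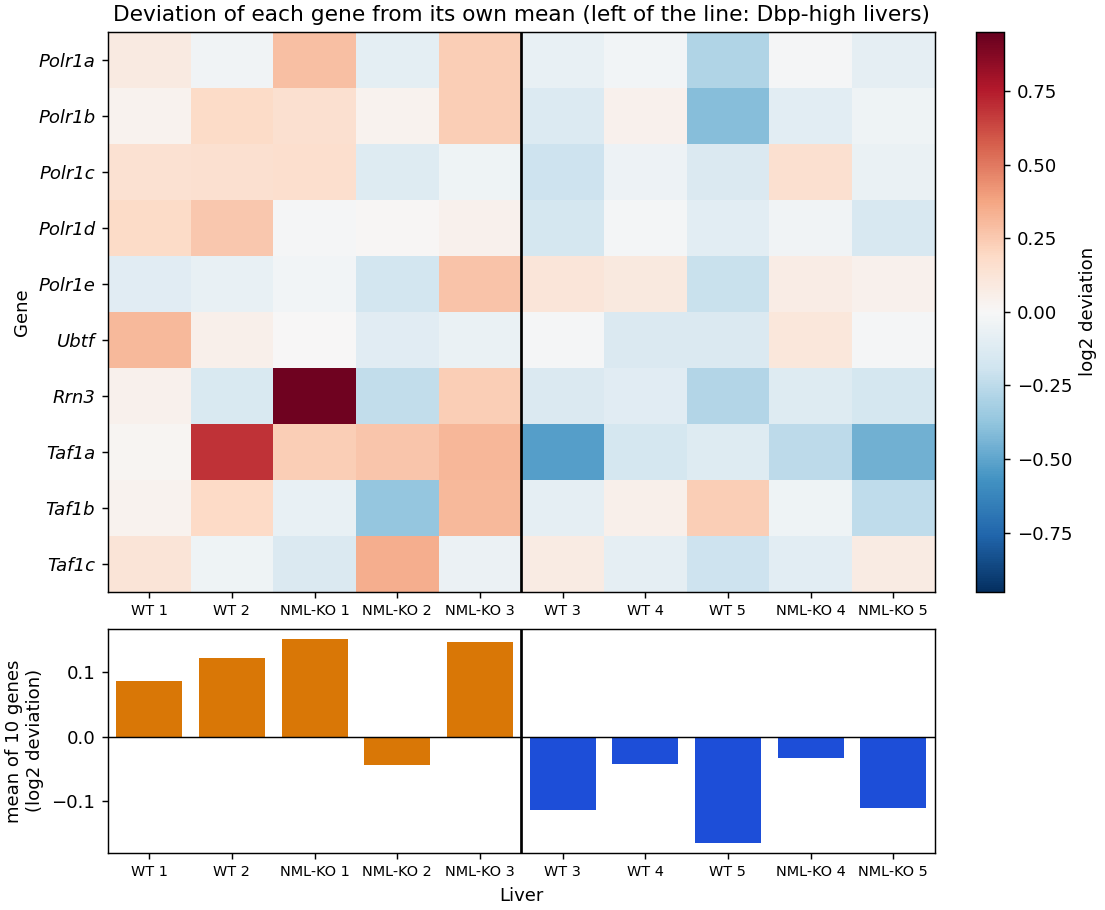
Log2 deviation of each gene from its own mean over 10 livers (colour scale), with livers along the horizontal axis and Dbp-high livers to the left of the line; bars below give the mean of the 10 genes in each liver. Of the 5 Dbp-high livers 4 lie above 0, NML-KO 2 lies at -0.044, and all Dbp-low livers lie below 0.

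Markers of other cells were set beside the classes. The mean of 4 cholangiocyte markers lay between 5.95 and 6.11 in Dbp-high and between 6.16 and 6.41 in Dbp-low livers, and this gap came from Sox9 alone (6.50 to 7.11 against 7.85 to 8.38). Krt19, Krt7 and Epcam overlapped, with means higher by 0.071, 0.050 and 0.059 in Dbp-high livers. Averaged over 10 markers of Kupffer cells and macrophages, livers lay between 7.64 and 8.52 in Dbp-high and between 8.31 and 9.08 in Dbp-low livers, with overlap. Means of sinusoidal endothelial (7 markers), stellate (7), B cell (4), T and NK cell (5), granulocyte (6) and dividing cell (4) markers also overlapped between the classes. NML-KO 2, the one Dbp-high liver below 0, also had the lowest Kupffer, endothelial, cholangiocyte, B cell and dividing cell means of the 10 livers. Its stellate (8.02), T and NK cell (5.39) and granulocyte (5.24) means were not the lowest. Markers within a list differed in this liver. Pax5, a B cell marker, was highest there (5.93), and of the cholangiocyte markers Sox9 was lowest (6.50) but Krt19 (5.72) and Krt7 (6.18) were not. The part of these cells in the values above was not tested. In whole liver, fewer cells of a type and less RNA per cell cannot be told apart.

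The spread between livers of one genotype had a median SD of 0.16 over the 10 genes, against 0.15 over all genes. Taf1a (0.40) and Rrn3 (0.35) were more variable than 94.5% and 92.2% of all genes. The other 8 lay between 0.14 and 0.20. The gene profiles closest to the mean of the 10 over the 10 livers were those of Zdhhc5, Gm9926 and Mrpl2. Picked as the nearest of all genes, they lay 0.031 to 0.041 away (root mean square, log2 scale), which is small by choice. The median gene lay 0.17 away. Gm9926 is dim, with a mean of 4.90 against 6.22 for the median gene. Of the 10 themselves, Polr1a was nearest (0.084) and Taf1a farthest (0.28).

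Other genes of the pathway and of the sister enzymes were drawn up by function in 7 lists. Of their 68 measured genes 3 had an unadjusted p below 0.05 over all livers (4.41%, against 2.7% of all genes), and 1 of these was Rrp8, the targeted gene. Of the 8 other subunits of RNA polymerase I, all measured, 0 passed the adjusted threshold by limma and 1 had an unadjusted p below 0.05. This was Polr2e, a subunit common to all 3 nuclear RNA polymerases, at 1.17-fold lower in NML-KO livers (difference -0.23, SE 0.082; unadjusted p = 0.0186 by limma), with overlapping values of 7.65 to 7.90 in WT and 7.44 to 7.80 in NML-KO livers. Polr2l, a small subunit also common to them, had a difference of -0.29 (SE 0.17), or -0.15 without WT 1. The median over the 8 was -0.12, against -0.0065 over all genes. With the Dbp class in the model it was 0.010, with 5 of 8 above 0, against a median of -0.0092 over all genes.

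Of 7 further initiation, termination and chromatin factors of the ribosomal DNA, 0 had an unadjusted p below 0.05, and the median was 0.047. Taf1d, the remaining TAF1 protein of selectivity factor 1, had a difference of 0.29 (SE 0.16), with WT values of 8.61 to 9.16 and NML-KO values of 8.91 to 9.70. It was 0.16 without NML-KO 1, and 0.083 when all its probe sets were averaged. Cavin1, whose product is also known as a release factor for RNA polymerase I transcripts, differed by -0.15 (SE 0.12), and by -0.084 without WT 2.

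Of 10 genes listed for silencing and chromatin of the ribosomal DNA, not all of them silencers, 9 were measured. Rrp8 was the 1 gene of these with an unadjusted p below 0.05. Dnmt1, the maintenance DNA methyltransferase gene, had a difference of -0.15 (SE 0.087; -0.082 without NML-KO 2), and the median of the 9 was -0.068. Of 18 measured of 23 regulators of RNA polymerase I, 0 had an unadjusted p below 0.05 and the median was -0.028. The smallest p in that list belonged to Sirt7, a deacetylase gene that activates RNA polymerase I (-0.21, SE 0.12), and to Pih1d1, a chaperone adaptor gene (-0.097, SE 0.066; -0.063 without WT 1).

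The sister enzymes are given for comparison. Of 7 subunits specific to RNA polymerase II, 0 had an unadjusted p below 0.05 (median -0.082), and the smallest p were those of Polr2i (-0.11, SE 0.095; -0.054 without NML-KO 1) and Polr2g (-0.090, SE 0.095; -0.049 without WT 1). Of 10 measured subunits specific to RNA polymerase III, 1 did, Polr3gl, at 1.16-fold lower (-0.21, SE 0.095; unadjusted p = 0.0477 and adjusted p = 0.999 by limma), with WT values of 6.90 to 7.36 and NML-KO values of 6.72 to 7.04. Polr3e had a difference of -0.24 (SE 0.11). Without WT 1 these differences were -0.14 and -0.16. Of 9 measured initiation factors and regulators of RNA polymerase III, 0 had an unadjusted p below 0.05. The median was -0.078, and Bdp1 (0.11, SE 0.083) and Brf1 (-0.19, SE 0.15) had the smallest p. Without WT 1 these were 0.055 and -0.043. With the Dbp class in the model the median was -0.0098 for the RNA polymerase II subunits. It was -0.066 for the RNA polymerase III subunits and -0.034 for its initiation factors and regulators. The difference of medians between the subunits of the 3 enzymes was not tested.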

How the data were processed

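The authors' deposited table holds linear intensity values for 28815 probe sets and 10 arrays, made from total liver RNA labelled for whole transcripts, per the labels' protocols. How they were corrected for background, normalized and summarized is not stated there. Array medians lay between 62.5 and 66.7, and precision is limited by there being 10 arrays.

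Probe sets with 1 gene symbol in the platform table (21780) were named, with symbols updated through RefSeq, leaving 19935 genes. Values were taken to log2 and tested by limma 3.58.1 in R 4.3.3 over all genes, with Benjamini-Hochberg adjustment and a threshold of 0.05. Within-class differences and the interaction came from 1 fit with a mean per genotype and Dbp class. The fits were also run on simulated data with independent noise per gene and no difference between Dbp classes. No result here rests on that run. Single genes were also tested by exact permutation of the mean difference.

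Named genes are the 10 members, Rrp8, Dbp, the 2 genes of each pathway list with the smallest unadjusted p over all livers, and the 3 nearest profiles. Hepatocyte marker genes serve as a tissue check. The members, lists and tests were chosen with earlier results of these data known. Motifs were chosen after the values had been seen. Sequences are from RefSeq promoter windows, found for all 10 genes. Alternatives tried are given under the dependence on processing.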

Additional observations from a re-analysis of the deposited data

Results flagged for a closer look

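Of 27 genes looked at, 6 had a genotype difference that differed between the Dbp classes at an unadjusted p below 0.05 by limma's interaction test (Dbp-high minus Dbp-low), and none passed the adjusted threshold. Over all genes, 6.49% had such a p. The pathway genes among the 27 were named for their small genotype p, and the genes are read in the same livers, so the share of the 27 and the 6.49% are not directly comparable. Ubtf had -0.38 (unadjusted p = 0.0201, adjusted p = 0.742) and Polr2e -0.35 (0.0185, 0.742). Cavin1 had -0.46 (0.0217, 0.744) and Pih1d1 -0.28 (0.0264, 0.75). Polr2g had -0.37 (0.0491, 0.765) and Brf1 -0.57 (0.0117, 0.739). All 6 interactions are below 0, and the share of all genes with such a p and an interaction below 0 is not given here. Without WT 1, Brf1 was -0.32, Ubtf -0.24, Polr2e -0.34, Cavin1 -0.49, Pih1d1 -0.25 and Polr2g -0.36. With WT 3 left out instead, Pih1d1 and Polr2g no longer had an unadjusted p below 0.05, while Ubtf, Polr2e, Cavin1 and Brf1 still did.

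In 3 of 54 groups of 5 livers looked at, 1 liver stood apart from the others by Dixon's criterion, which chance alone meets in about 1 of 20 groups (2.7 of 54). Polr2e was low in WT 3 (7.65, with the next at 7.84). Dnmt1 was high in WT 2 (7.24, with the next at 7.10). Polr3e was high in NML-KO 4 (7.23, with the next at 6.92). None of these is among the 10 polymerase and initiation factor genes, and Rrn3 in NML-KO 1 did not meet the criterion.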

How the results depend on the processing

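The count of the 10 genes past the adjusted threshold was 0 in every fit run: median centring, quantile normalization, array weights, a prior that was trended and robust, dim genes left out (9 genes remain), the mean of all probe sets, an offset of 16, fits within a class alone, the replicate block and each liver left out. The smallest adjusted p in any of them was 0.181. With 1 liver left out the median difference ran from 0.014 to 0.073 over all livers, from -0.072 to -0.0056 in Dbp-high and from -0.0075 to 0.11 in Dbp-low livers. Leaving out 1 liver gives a class a single liver of a genotype in some fits, and its spread is then taken from the other groups. The Dbp-high median, -0.034, was 0.015 after quantile normalization and 0.014 with dim genes left out. Rrp8 ran from -0.96 to -0.82, and passed the threshold without NML-KO 4.

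Signs turned, far from any threshold, in these fits. With array weights Polr1d over all livers was 0.0062, Ubtf 0.053 and Polr2g 0.00092. In Dbp-low livers Polr1d, at 0.0011, was -0.016 after quantile normalization, -0.0030 after median centring and -0.034 with the replicate block, and ran from -0.059 to 0.061 with 1 liver left out. Over all livers, Polr1c ran from -0.010 to 0.077, Ubtf from -0.068 to 0.044, Taf1a from -0.082 to 0.22, Taf1c from -0.028 to 0.093 and Zdhhc5 from -0.017 to 0.065 with 1 liver left out.

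Same-numbered livers did not meet the criterion for pairs. Their deviations correlated at 0.438, 0.264, -0.416, 0.348 and 0.537 over all genes, and 2 of 10 livers correlated best with their own number. The 4 positive pairs share a Dbp class, and pair 3 does not. With the replicate block the median over all livers stayed at 0.048 and Rrp8 at -0.88 (adjusted p = 0.507 by limma), with no change of call.

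Over all genes, the count past the adjusted threshold rose from 0 to 23 in Dbp-high livers without WT 1, to 24 in Dbp-low livers without NML-KO 5, to 11 and 13 for the interaction without WT 1 and without NML-KO 5, and to at most 3 elsewhere. The dimmer Polr1d probe set, chosen after seeing the data, had -0.43 in Dbp-high and 0.32 in Dbp-low livers, with an interaction of -0.74 (adjusted p = 0.731 by limma).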
